A study of Homo sapiens with 24 samples.

Results

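EN1, EN2, PAX2, PAX5, PAX8, GBX2 and EGR2 are 7 transcription factors that pattern the midbrain and hindbrain. They were chosen with earlier results of these data known, so counts of called genes among them are descriptions. The organoid count table lists 7 of the 7 among 61544 gene identifiers, and 7 passed the filter on low counts. The table of neural progenitor cells (NPCs) lists 4 of the 7 among 10221 genes (GBX2, EGR2, PAX5 and PAX8), and 3 passed the filter. PAX8 was below it in the NPCs, and EN1, EN2 and PAX2 were not analysed here in the NPCs.

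The border between midbrain and hindbrain, the isthmus, is a signalling centre of the early neural tube. It forms where OTX2, a homeobox factor of the forebrain and midbrain, meets GBX2, a homeobox factor of the anterior hindbrain, and it secretes WNT1 on the midbrain side and FGF8 on the hindbrain side. PAX2, PAX5 and PAX8 are paired-box factors switched on around this border, and the homeobox factors EN1 and EN2 act with them to shape the midbrain and cerebellum. EGR2, also called KROX20, is a zinc finger factor that marks a pair of hindbrain segments. Several of these genes have other roles: PAX2 and PAX8 in kidney and inner ear, PAX8 in thyroid, PAX5 in B lymphocytes, and EGR2 in myelinating Schwann cells and as an early response gene.

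The cells derive from the established embryonic stem cell line H9 (human), and RNA was measured by sequencing of libraries enriched for polyadenylated RNA. NPCs and cerebral organoids at day 30 were each studied in 3 groups: NC, labelled wild type and given a scrambled short hairpin RNA, and sh1 and sh4, labelled as knockdown of KDM2A with 1 of 2 hairpins. All groups received lentivirus as stem cells and were selected with puromycin. Each NPC group has 5 libraries and each organoid group has 3. Whether these are separate cultures, or whether a line is 1 clone, is not stated in the labels, so p-values cover only the spread among these libraries, and that spread may be technical. KDM2A encodes a histone demethylase that acts on lysine in the tail of histone H3 and binds unmethylated CG pairs through a CXXC zinc finger.

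The density of CG pairs before the start of each gene is given as a description of sequence. RefSeq windows (GRCh38.p14) of 250 bases before an annotated start were found for 6 of the 7 genes, 9 windows in all, and EN1 had none. In the NPCs GBX2 and PAX5 stood higher and PAX8 lower in both hairpin groups, while GBX2 was lower in the organoids. EGR2 also stood higher in the NPCs, but its windows are not printed. The windows of GBX2 (chr2:236168387-236168636), PAX5 (chr9:37034269-37034518) and PAX8 (chr2:113278922-113279171) are printed 5′ to 3′. All lie on the minus strand, and each CG pair is in capitals.
GBX2: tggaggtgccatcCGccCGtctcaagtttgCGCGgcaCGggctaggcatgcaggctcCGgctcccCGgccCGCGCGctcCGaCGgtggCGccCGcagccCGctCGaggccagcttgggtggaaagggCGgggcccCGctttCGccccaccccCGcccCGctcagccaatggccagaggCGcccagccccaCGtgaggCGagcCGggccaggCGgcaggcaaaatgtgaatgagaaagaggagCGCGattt
PAX5: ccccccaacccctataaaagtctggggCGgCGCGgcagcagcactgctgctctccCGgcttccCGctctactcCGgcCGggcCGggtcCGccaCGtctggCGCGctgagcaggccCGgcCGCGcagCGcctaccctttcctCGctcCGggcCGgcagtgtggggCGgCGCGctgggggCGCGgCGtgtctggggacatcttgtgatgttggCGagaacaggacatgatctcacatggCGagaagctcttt
PAX8: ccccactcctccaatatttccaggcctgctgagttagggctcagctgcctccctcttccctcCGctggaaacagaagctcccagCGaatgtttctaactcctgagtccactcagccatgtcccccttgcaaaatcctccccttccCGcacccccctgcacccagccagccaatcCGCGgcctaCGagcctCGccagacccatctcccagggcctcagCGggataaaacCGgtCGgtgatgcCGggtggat
The GBX2 window holds 28 CG pairs, more than 84.1% of 35114 such windows of all genes. The PAX5 window holds 27, more than 82.3% of windows. The PAX8 window holds 11, equal to the median of all windows (quartiles 3 and 23). EN2 (chr7:155457879-155458128, plus strand) had the densest window of the 9, with 45 CG pairs, more than 99.4% of windows. The PAX2 windows hold 10 and 15, and the 3 EGR2 windows hold 8, 35 and 27. Core motifs of homeobox factors were searched on both strands. TAATCC, bound by OTX-type factors, was in 5.62% of all windows. The palindrome TAATTA was in 4.35% of all windows, and the related CAATTA in 6.70%. None of the 9 windows held any of these letters. These are descriptions of sequence, and no binding or methylation was measured here. The part of CG density in any change was not tested.

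Library totals over the listed genes ran from 12733888 to 20185306 counts per NPC library and from 15899243 to 18853737 counts per organoid library. The unit of level is CPM, in which counts are divided by the scaled total of their library, and each of the 7 genes was low. KDM2A was 186 ± 15.3 CPM (SD, n = 5) in NC NPCs, 92.1 ± 4.15 in sh1 and 95.1 ± 4.21 in sh4. In the organoids it was 96.8, 99.9 and 105 CPM in the 3 NC libraries, 110 ± 6.97 CPM in sh1 (SD, n = 3) and 101 ± 4.89 CPM in sh4, so the organoid labels could not be checked by their target and the groups are called by their labels. The NPC table looks already selected: of its 9860 tested genes 99.3% had an edgeR adjusted p under 0.05 for sh1 against NC, and the highest unadjusted p was 0.148. A difference between sh1 and NC in the NPCs is therefore no independent evidence. The cell type markers also differed between groups. Summed over 6 pluripotency genes the NC organoids held 669 to 957 CPM and the hairpin organoids 71.5 to 97.6, and summed over 7 neuron genes NC held 2860 to 3100 CPM, sh1 1080 to 1510 and sh4 202 to 836. In bulk RNA, fewer cells of a type and less RNA per cell cannot be told apart.

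In the NPCs, GBX2 and PAX5 rose with both hairpins, EGR2 rose with sh4, and PAX8 was lower in both hairpin groups at very low counts. Calls required an adjusted p under 0.05 together with a log2 fold change of 1 or more in either direction. By that rule 2 of the 3 tested genes were called higher with sh1, against 6.31% of all tested NPC genes, and 3 of 3 with sh4, against 6.55%. With both hairpins 2 of 3 were called higher, against 4.62%. Both comparisons share the NC libraries.

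GBX2 (ENSG00000168505, chr2:236165236-236168369, minus strand, GENCODE 29 on GRCh38) was at 1.41, 2.47, 0.946, 1.49 and 1.83 CPM in the NC NPCs. Its sh1 libraries held 3.56, 3.02, 3.24, 4.40 and 4.98 CPM, and its sh4 libraries 6.32, 8.12, 5.64, 8.13 and 7.13 CPM. The 3 groups did not overlap, with NC lowest and sh4 highest. The log2 fold change against NC was 1.21 with sh1 (SE 0.206, edgeR's quasi-likelihood test, Benjamini-Hochberg adjusted p = 2.23e-05) and 2.08 with sh4 (SE 0.193, adjusted p = 8.24e-09). The sh1 libraries stood below the sh4 libraries by a log2 difference of -0.87 (95% interval -1.23 to -0.52, edgeR adjusted p = 0.000563), short of the fold threshold. GBX2 shares 9.55% of its exon bases with an antisense gene, AC019068.1, and the sources used here do not state a strand setting, so reads of the pair cannot be told apart.

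EGR2 (ENSG00000122877, chr10:62811996-62919900, minus strand) stood at 2.92, 2.68, 2.40, 2.65 and 2.87 CPM in NC. The sh1 libraries held 5.43, 4.01, 4.25, 3.99 and 4.78 CPM, and the sh4 libraries 10.4, 12.3, 11.4, 10.8 and 10.5 CPM. The order was again NC, sh1, sh4 with no overlap. EGR2 was higher with sh1 by a log2 fold change of 0.72 (SE 0.115, edgeR adjusted p = 1.19e-05), under the fold threshold, and rose by 2.03 with sh4 (SE 0.106, edgeR adjusted p = 2.37e-12). The difference between the hairpins was itself called, at -1.31 for sh1 against sh4 (SE 0.0991, edgeR adjusted p = 3.16e-09). It was the 1 gene of 3 called there, against 4.6% of all tested genes.

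PAX5 (ENSG00000196092, chr9:36833275-37034185, minus strand) rested on few counts, with 4, 1, 0, 5 and 6 in the NC libraries, 7, 16, 17, 15 and 15 in sh1, and 9, 8, 8, 10 and 14 in sh4. In CPM the group means were 0.170 ± 0.138 in NC, 0.767 ± 0.183 in sh1 and 0.521 ± 0.140 in sh4 (SD, n = 5). Each hairpin library lay above every NC library, and sh1 and sh4 overlapped. PAX5 rose by 2.08 on the log2 scale with sh1 (SE 0.391, edgeR adjusted p = 6.66e-05) and by 1.51 with sh4 (SE 0.420, edgeR adjusted p = 0.00262). PAX5 passed the filter on low counts only through the hairpin libraries, where it is high, and was not tested in fits of NC with 1 hairpin group, so the counts of called genes that include it are a description. With no filter its values were 2.09 (edgeR adjusted p = 6.4e-05) and 1.52 (edgeR adjusted p = 0.00255). The 2 hairpins differed by 0.57 (95% interval -0.07 to 1.22, edgeR adjusted p = 0.190). Libraries of sh1 and sh4 did not overlap with NC in 3 of 3 tested genes, which was also so for 76.6% (sh1) and 72.8% (sh4) of all tested NPC genes.

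PAX8 (ENSG00000125618, chr2:113215997-113278950, minus strand) had 11, 11, 6, 12 and 7 counts in the NC NPCs, 0, 3, 4, 3 and 3 in sh1, and 2, 0, 0, 1 and 1 in sh4. Each hairpin library held fewer counts than any NC library. Pooled over libraries, the NC level was 3.63 times that of sh1 (exact 95% interval 1.93 to 7.32) and 12.4 times that of sh4 (4.52 to 47.3), intervals that cover counting error only. In a fit with no filter on low counts the log2 fold change was -1.80 with sh1 (edgeR adjusted p = 0.000530) and -3.42 with sh4 (edgeR adjusted p = 7.38e-06). PAX8 shares 9.26% of its exon bases with PAX8-AS1 on the other strand, and their reads cannot be told apart either.

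**Figure D1:**
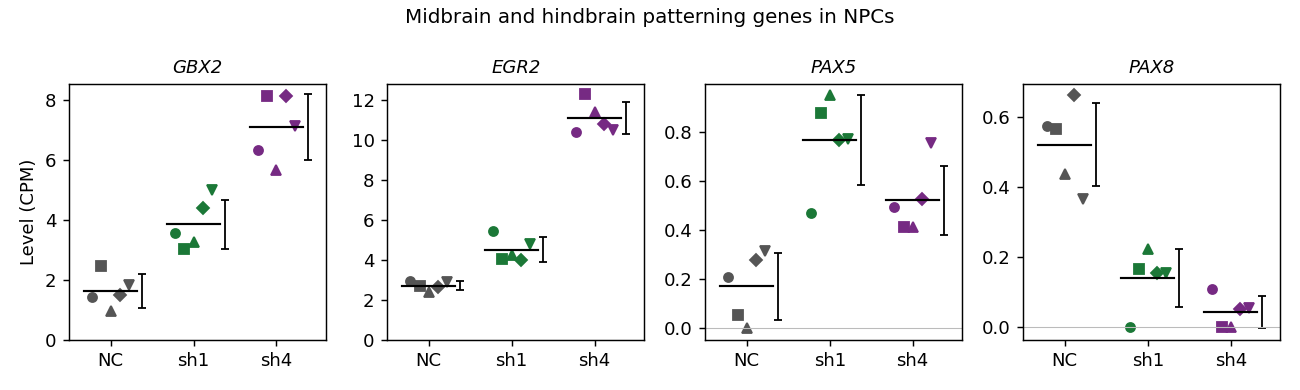
Level in CPM (y axis) of the 4 genes listed in the NPC table, by group (x axis). Each point is 1 library, the line is the mean and the bar beside it the SD (n = 5). GBX2 and EGR2 are lowest in NC, intermediate in sh1 and highest in sh4, PAX5 is higher in sh1 and sh4 than in NC, and PAX8 is lower in both.

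In the organoids GBX2 was called lower with both hairpin labels, and it was the 1 gene of the 7 so called, against 6.18% of all tested organoid genes. With the sh1 label EN1 also rose and PAX2 and EGR2 also fell. By count, 4 of the 7 were called with sh1, against 20.0% of 19704 tested genes, 1 of them higher (12.1% of all) and 3 lower (7.92% of all). With sh4 1 of the 7 was called, against 35.5%. The sh4 share was thus below the background, in groups whose replicates spread widely for these genes. EN1 passed the filter on low counts only through the sh1 libraries, and PAX2 and GBX2 only through the NC libraries, where each is high. The counts of called genes that include them are therefore a description. Library ranges that did not overlap with NC numbered 4 of 7 for sh1, against 62.1% of all tested genes, and 1 of 7 for sh4, against 73.1%.

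The engrailed genes are the homeobox factors of midbrain and cerebellum. EN1 (ENSG00000163064, chr2:118842171-118847678, minus strand) had 0, 11 and 2 counts in the NC organoids, 34, 27 and 22 in the libraries labelled sh1, and 2, 8 and 24 in those labelled sh4. On the CPM scale these were 0, 0.587 and 0.117 in NC, 1.86, 1.48 and 1.21 in sh1, and 0.130, 0.471 and 1.44 in sh4. All 3 sh1 libraries lay above NC, while the sh4 libraries ran from the NC range to the sh1 range. EN1 rose with sh1 by 2.63 on the log2 scale (95% interval 0.59 to 4.67, edgeR adjusted p = 0.0381), and with sh4 the difference was 1.49 (-0.69 to 3.67, edgeR adjusted p = 0.198). It passed the filter on low counts only through the sh1 libraries, where it is high. The sh1 call was lost when any of 5 of the 9 libraries was left out (NC replicates 1 and 3 and each sh1 replicate, with values from 2.06 to 2.76).

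EN2 (ENSG00000164778, chr7:155458129-155464831, plus strand) stood at 0.607, 2.61 and 0.586 CPM in NC, 2.36, 2.03 and 2.25 in sh1, and 0.909, 0.706 and 1.98 in sh4. NC replicate 2 matched the sh1 libraries and the other NC libraries lay below them. Against NC the log2 difference was 0.79 with sh1 (95% interval -0.50 to 2.08, edgeR adjusted p = 0.288) and -0.09 with sh4 (-1.44 to 1.26, edgeR adjusted p = 0.902), so no change was detectable at this spread. NC replicate 2 decided both values. Without it EN2 was called higher with sh1, at 1.88 (edgeR adjusted p = 0.0149), and the sh4 value became 0.99 (edgeR adjusted p = 0.107). Without the same library EN1 was called with sh4 at 3.42 (edgeR adjusted p = 0.0369) and its sh1 value was 4.57.

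The paired-box genes did not move as a group. PAX2 (ENSG00000075891, chr10:100735603-100829941, plus strand) was at 2.82, 2.40 and 4.40 CPM in NC, 0.165, 0.604 and 0.384 in sh1, and 0, 3.12 and 0.120 in sh4. The sh1 libraries lay below NC, and sh4 replicate 2 stood within the NC range while the other sh4 libraries were near 0. PAX2 fell with sh1 by 3.04 on the log2 scale (SE 1.11, edgeR adjusted p = 0.0470), a call lost when any NC or sh1 library was left out, with values of -3.51 to -2.68. With sh4 the difference was -1.54 (95% interval -3.76 to 0.67, edgeR adjusted p = 0.191). Without sh4 replicate 2 it was -5.53 and called (edgeR adjusted p = 0.000326).

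PAX5 stood at 0.773, 0.853 and 1.11 CPM in the NC organoids, 1.81, 0.220 and 1.92 in sh1, and 0.0649, 0.647 and 1.08 in sh4. The groups overlapped, with sh1 replicate 2 and sh4 replicate 1 far below the others of their group. Its log2 difference was 0.53 with sh1 (95% interval -1.17 to 2.22, edgeR adjusted p = 0.597) and -0.59 with sh4 (-2.42 to 1.24, edgeR adjusted p = 0.543), where the first interval includes the value called in the NPCs with sh1 and the second leaves out the value called there with sh4.

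PAX8 was at 1.88, 1.71 and 1.06 CPM in NC, 1.37, 0.385 and 0.767 in sh1, and 1.88, 4.18 and 1.32 in sh4. Both hairpin groups overlapped with NC. The log2 difference was -0.88 with sh1 (95% interval -2.10 to 0.35, edgeR adjusted p = 0.216) and 0.67 with sh4 (-0.48 to 1.81, edgeR adjusted p = 0.269). Between the hairpins PAX8 was lower in sh1 than in sh4 by -1.54 (SE 0.538, edgeR adjusted p = 0.0371), a call that was lost without sh4 replicate 2 (-0.92) and without any of 4 other libraries (NC replicates 1 and 2 and sh1 replicates 2 and 3, at -1.54 to -1.19).

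GBX2 was at 2.71, 2.40 and 3.34 CPM in the NC organoids, 0.274, 0.604 and 0.548 in sh1, and 0.130, 0.0588 and 0.0599 in sh4. The 3 groups did not overlap, and the order was the reverse of that in the NPCs. GBX2 fell by 2.55 on the log2 scale with sh1 (95% interval -3.34 to -1.75, edgeR adjusted p = 0.000368). The sh4 libraries held 2, 1 and 1 counts, and NC stood at 34.4 times their pooled level (exact 95% interval 13.1 to 128, counting error only). The fitted sh4 value of -4.99 (edgeR adjusted p = 1.10e-05) depends on the prior count. GBX2 was higher in sh1 than in sh4, at 2.44 (SE 0.541, edgeR adjusted p = 0.00476), and was 1 of the 2 genes of the 7 called between the hairpins, with PAX8, against 19.0% of all tested genes. It passed the filter through the NC libraries. All 3 GBX2 calls held when each of the 9 libraries was left out in turn.

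EGR2 stood at 1.33, 1.01 and 1.11 CPM in the NC organoids, 0.548, 0.275 and 0.219 in sh1, and 0.455, 1.82 and 0.659 in sh4. The sh1 libraries lay below NC, and of the sh4 libraries replicate 2 lay above NC and the others below it. EGR2 fell with sh1 by 1.71 on the log2 scale (SE 0.568, edgeR adjusted p = 0.0326), and with sh4 the difference was -0.22 (95% interval -1.37 to 0.92, edgeR adjusted p = 0.718). The sh1 call was lost when any NC library, or sh1 replicate 2 or 3, was left out (-1.79 to -1.48). Between the hairpins the difference was -1.49 (95% interval -2.78 to -0.19, edgeR adjusted p = 0.0560).

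**Figure D2:**
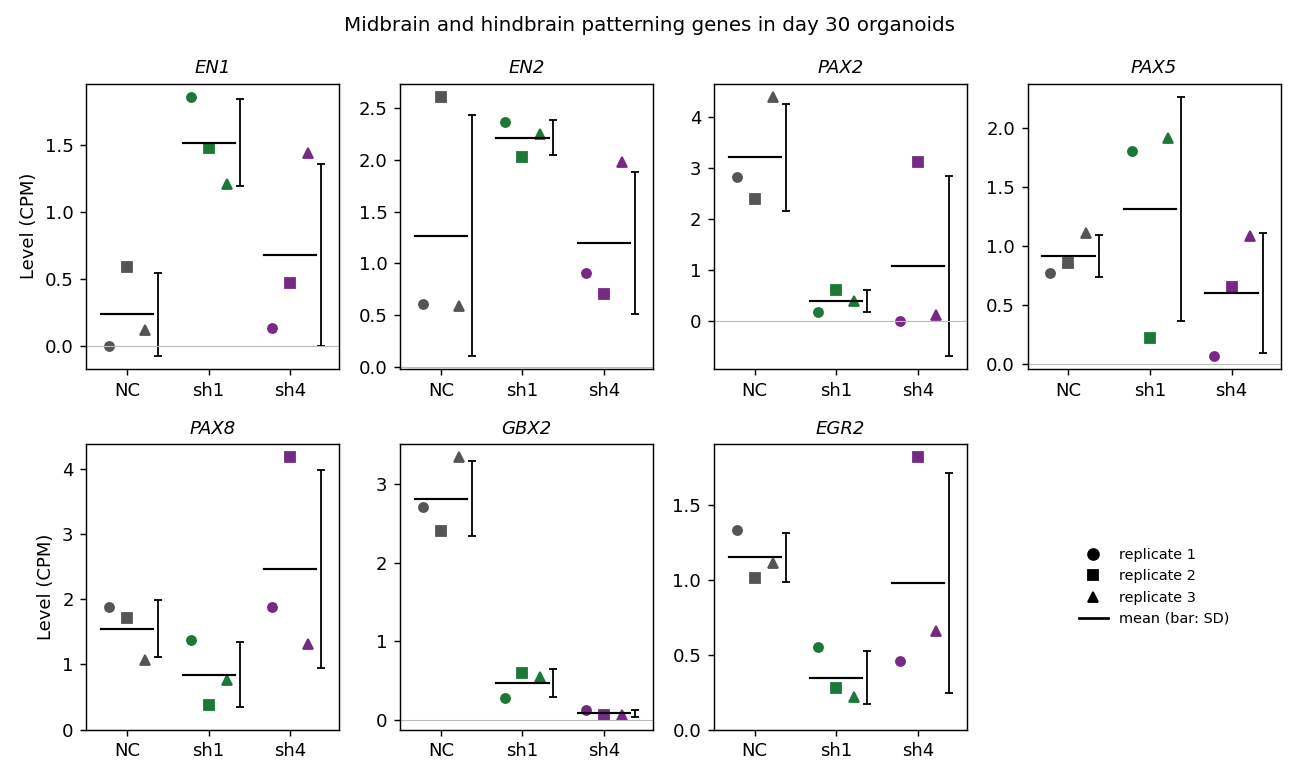
Level in CPM (y axis) of the 7 genes in the day 30 organoids, by group label (x axis). Each symbol is 1 library, its shape stands for the replicate number, the line is the mean and the bar the SD (n = 3). GBX2 is separated in all 3 groups, and single libraries stand apart for EN2 (NC replicate 2) and for PAX2, PAX8 and EGR2 (sh4 replicate 2).

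The change with the hairpins was compared between NPCs and organoids directly, as the mean effect of the 2 hairpins in the NPCs less that in the organoids, in 1 fit over 10034 genes listed in both tables. GBX2 differed most of the 4 genes, by 5.45 on the log2 scale (SE 0.368, edgeR adjusted p = 2.65e-12), from 1.67 in the NPCs to -3.79 in the organoids. EGR2 differed by 2.35 (SE 0.348, edgeR adjusted p = 1.49e-06), with 1.39 in the NPCs and -0.96 in the organoids. PAX5 differed by 1.83 (SE 0.746, edgeR adjusted p = 0.0289), with 1.80 and -0.03. PAX8 differed the other way, by -2.48 (SE 0.625, edgeR adjusted p = 0.000921), with -2.59 in the NPCs and -0.11 in the organoids. A difference passed for 4 of 4 genes and for 78.6% of all genes in that fit, so the count is near the background. The PAX5 difference was no longer past the threshold without NC replicate 2 of the NPCs (1.62) or NC replicate 3 of the organoids (1.71).

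**Figure D3:**
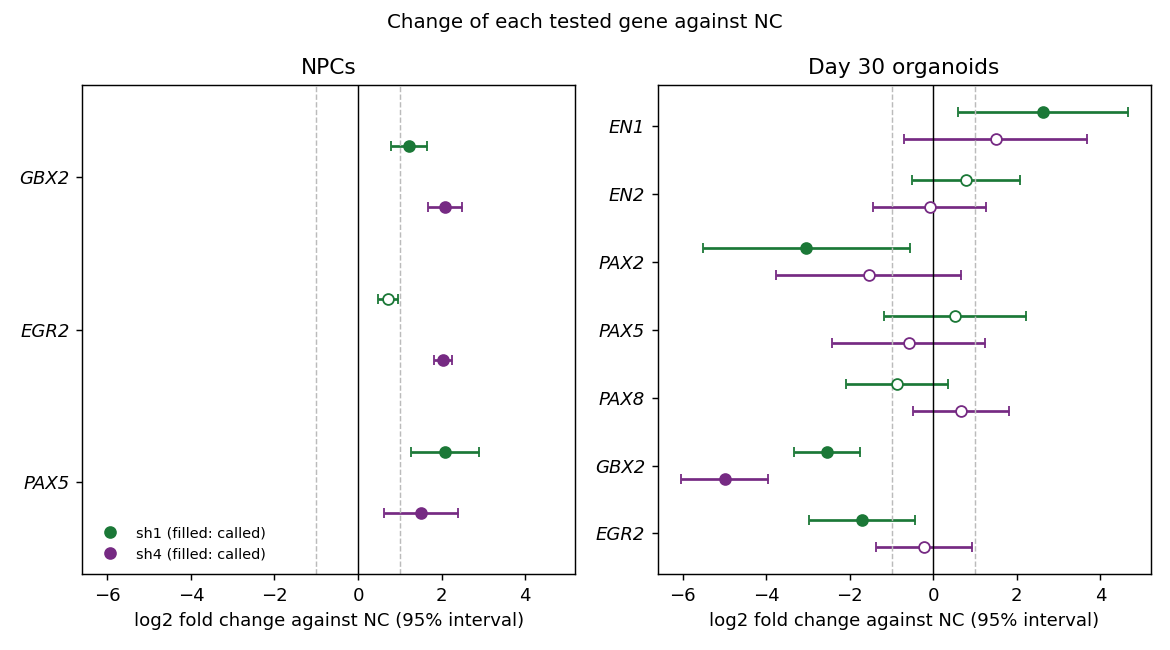
Log2 fold change against NC (x axis) of each tested gene, in NPCs (left) and day 30 organoids (right), for sh1 and sh4. Points are estimates, bars are 95% intervals, filled points were called, and dashed lines mark the fold threshold. GBX2 lies at 1.21 and 2.08 in the NPCs and at -2.55 and -4.99 in the organoids, and most other organoid intervals include 0.

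Levels of different genes were compared per kilobase of exon. In the NC organoids GBX2 was highest, at 1.22 ± 0.208 CPM per kb (SD, n = 3), followed by PAX2 at 0.513 ± 0.169, EN2 at 0.374 ± 0.343, EGR2 at 0.312 ± 0.0431 and PAX8 at 0.209 ± 0.0586. PAX5 at 0.0979 ± 0.0191 and EN1 at 0.0813 ± 0.108 were lowest. Of neighbours in this order, the libraries of PAX2 and EN2, of EN2 and EGR2, and of PAX5 and EN1 overlapped, while all GBX2 libraries lay above those of PAX2, all EGR2 libraries above those of PAX8, and all PAX8 libraries above those of PAX5. PAX2 (0.384 to 0.704) also lay above EGR2 (0.275 to 0.359). In sh1 the engrailed genes led, EN2 at 0.652 ± 0.0487 and EN1 at 0.526 ± 0.115 CPM per kb, and PAX2, at 0.0615 ± 0.0352, was lowest by mean. In sh4 EN2 at 0.353 ± 0.201, PAX8 at 0.332 ± 0.205, EGR2 at 0.265 ± 0.200 and EN1 at 0.236 ± 0.235 overlapped, and GBX2, at 0.0358 ± 0.0176, was lowest by mean. By group mean GBX2 thus went from first place in NC to last in sh4. By library the last place in sh4 was not fixed. PAX2 was below GBX2 in sh4 replicates 1 and 3 (0 and 0.0192 against 0.0561 and 0.0259 CPM per kb). PAX5 was below GBX2 in sh4 replicate 1 (0.00696). In the NPCs, whose CPM are relative to the listed genes alone, EGR2 and GBX2 stood at 0.733 ± 0.0558 and 0.704 ± 0.245 CPM per kb in NC, at 1.22 ± 0.167 and 1.66 ± 0.357 in sh1, and at 3.01 ± 0.210 and 3.05 ± 0.476 in sh4 (SD, n = 5). PAX8 (0.0704 ± 0.0160 in NC) and PAX5 (0.0182 ± 0.0148) were far below them.

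OTX2, the partner of GBX2 at the border, fell with sh4 in the NPCs, where GBX2 rose, and was not called in the organoids. In the NPCs OTX2 was 109 ± 4.27 CPM in NC, 90.8 ± 1.97 in sh1 and 45.8 ± 2.74 in sh4 (SD, n = 5). OTX2 fell by 1.25 with sh4 on the log2 scale (SE 0.0474, edgeR adjusted p = 2.53e-14), and its difference with sh1 was -0.26 (edgeR adjusted p = 3.21e-05). In the organoids it was 56.4 ± 5.79 CPM in NC, 57.3 ± 9.80 in sh1 and 37.5 ± 10.5 in sh4 (SD, n = 3), with log2 differences of 0.02 (edgeR adjusted p = 0.939) and -0.59 (edgeR adjusted p = 0.0218), neither called.

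The 2 border signals were called with 1 hairpin in each system where they were tested. WNT1, the signal of the midbrain side, was 16.7 ± 2.82 CPM in NC NPCs, 12.1 ± 2.51 in sh1 and 1.11 ± 0.0861 in sh4, and it fell by 3.90 with sh4 (SE 0.178, edgeR adjusted p = 3.21e-13). In the organoids WNT1 was at 0.607, 5.92 and 4.98 CPM in NC, 25.4, 18.6 and 18.8 in sh1, and 2.92, 5.94 and 5.81 in sh4. It rose by 2.45 with sh1 (SE 0.560, edgeR adjusted p = 0.00573), in the group where EN1 rose, and differed by 0.35 with sh4 (edgeR adjusted p = 0.602). FGF8, the signal of the hindbrain side, was at 0.497, 0.853 and 0.704 CPM in NC organoids, 0.165, 0.0549 and 0 in sh1, and 0.455, 0.765 and 0.360 in sh4. It fell with sh1 (edgeR adjusted p = 0.00530), where NC stood at 9.38 times the pooled sh1 level (exact 95% interval 3.37 to 36.2, counting error only), and with sh4 the log2 difference was -0.37 (edgeR adjusted p = 0.552). LMX1B, a LIM homeobox factor that maintains WNT1, differed by 0.58 with sh1 (edgeR adjusted p = 0.286) and by -0.26 with sh4 (edgeR adjusted p = 0.610).

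HOX genes next to the EGR2 domain rose in the NPCs. HOXB1 went from 10.5 ± 1.21 CPM in NC to 31.8 ± 3.35 in sh1 and 35.8 ± 5.64 in sh4 (log2 fold changes 1.60 and 1.77), and HOXA2 from 0.211 ± 0.0942 to 1.58 ± 0.349 and 1.49 ± 0.246 (2.84 and 2.77), with edgeR adjusted p of at most 3.08e-08. In the organoids HOXB1 differed by 0.58 with sh1 and -1.04 with sh4 (edgeR adjusted p = 0.390 and 0.128). HOXA2 differed by 0.18 with sh1 (edgeR adjusted p = 0.812) and fell by 1.69 with sh4 (edgeR adjusted p = 0.0322), though its libraries overlapped with NC.

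**Figure D4:**
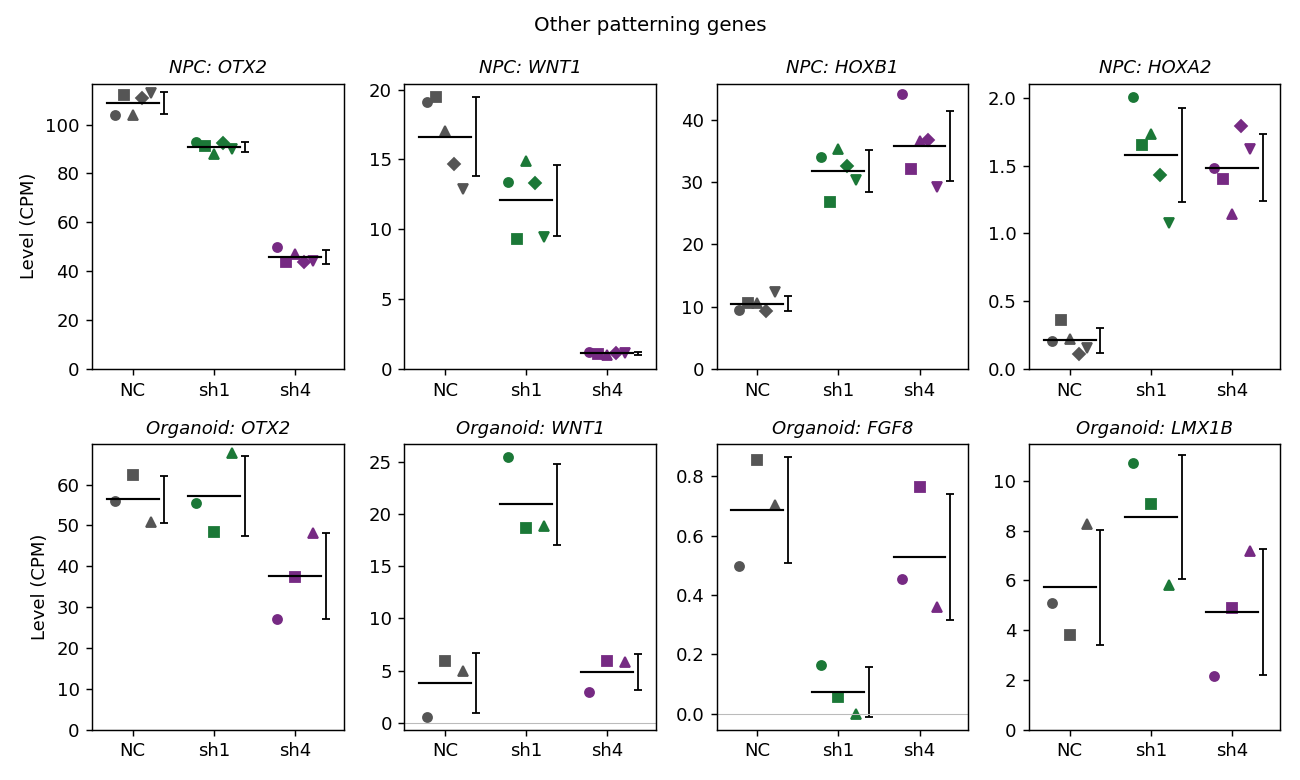
Level in CPM (y axis) by group (x axis) of OTX2, WNT1, HOXB1 and HOXA2 in the NPCs (top) and of OTX2, WNT1, FGF8 and LMX1B in the organoids (bottom). Points are libraries, lines are means and bars SD (n = 5 in NPCs, n = 3 in organoids). WNT1 is lowest in sh4 in the NPCs and highest in sh1 in the organoids, and the LMX1B libraries of the 3 groups overlap.

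Among isthmic signals and their regulators, targets and brakes of FGF signalling rose in the NPCs. In the organoids more of this list fell than rose. Of 24 genes of isthmic signals and their regulators, 16 were tested in the NPCs, where 5 rose and 0 fell with both hairpins (median log2 fold change 0.98 for sh1 and 0.26 for sh4, against 0.11 and 0.03 over all tested genes). All 5 were targets or brakes of FGF signalling. Among them, ETV4 went from 5.02 ± 1.21 to 21.5 ± 2.95 and 35.7 ± 4.13 CPM, and SPRY2 from 33.3 ± 2.70 to 96.1 ± 7.52 and 96.0 ± 8.59 CPM. SPRY1 (log2 fold changes 1.43 and 1.77) and ETV5 (1.08 and 1.51) rose too. WNT1 and OTX2, on the same list, fell with sh4, and FGF8 was under the filter. In the organoids 23 were tested, 2 rose and 5 fell with both (medians -0.38 and -0.53, against 0.02 and -0.01). ETV4 fell there, from 25.9 ± 4.64 to 4.13 ± 1.09 and 9.23 ± 3.46 CPM, as did the ligand FGF17 (-1.62 and -1.73) and SP8, a zinc finger factor upstream of FGF8 (-3.17 and -5.50), while the ligand WNT3A rose from 2.01 ± 0.878 to 11.4 ± 2.07 and 8.08 ± 3.06 CPM.

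Genes of the midbrain floor and of midbrain neurons rose more often than they fell in the organoids. Of 17 tested there, 5 rose and 1 fell with both hairpins (medians 0.62 and 0.31), where 10.2% of all tested genes rose and 6.18% fell with both. Those that rose included LMX1A, a floor plate factor, from 2.93 ± 1.61 to 42.0 ± 16.9 and 26.1 ± 8.75 CPM, FOXA1 (3.24 and 4.19) and BARHL2 (2.01 and 1.70). These factors also act outside the midbrain. The gene that fell with both was NKX6-1 (-1.06 and -2.23). With sh4 taken by itself 7 genes of the list rose and 4 fell. TH (-3.02), PAX7 (-1.90) and PAX3 (-2.10) were among those that fell with sh4. In the NPCs 7 were tested (medians 0.98 and -1.16), and TAL2 fell with both hairpins (-1.15 and -1.60).

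The genes of the hindbrain segments were split. In the organoids 21 were tested, 5 rose and 4 fell with both hairpins (medians 0.58 and -0.17). HOXB3 (1.93 and 1.54) and HOXB4 (1.76 and 1.70) rose, while EPHA4, a receptor that EGR2 is known to switch on, fell from 128 ± 11.5 to 42.9 ± 9.35 and 23.4 ± 2.33 CPM, and CYP26C1, a retinoic acid hydroxylase, fell by more (-3.75 and -5.80). In the NPCs 8 were tested, of which HOXB1 and HOXA2 rose and 0 fell with both.

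Of the cerebellar and rhombic lip genes, 11 were tested in the NPCs, where 1 rose (CALB1, 1.30 and 1.58) and 2 fell with both hairpins (ATOH1, -3.35 and -3.11, and NEUROG1, -2.59 and -1.79). In the organoids 19 were tested, 2 rose and 4 fell, with PAX6 from 171 ± 31.8 to 14.5 ± 4.05 and 8.01 ± 3.42 CPM and NEUROG2 (-2.62 and -6.19) among those that fell. PAX6 and NEUROG2 are also genes of the forebrain. The forebrain list, for comparison, had 22 genes tested in the organoids, of which 12 fell and 0 rose with both (medians -1.38 and -3.30), DLX5, DLX2 and SIX3 among them.

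Markers of other tissues in which these genes act moved beside them in some libraries. In sh4 replicate 2 of the organoids, where PAX2, PAX8 and EGR2 stood highest of the sh4 libraries, the neural crest factor SOX10 was 50.2 CPM (4.61 and 11.6 in the other sh4 libraries) and the sensory neuron factor POU4F1 55.7 (1.10 and 6.23). That library was also highest of sh4 in the neuron genes, which summed to 836 CPM there and to 202 and 391 in the others. The 11 genes of Schwann cells and neural crest glia summed to 268 to 384 CPM in NC, 608 to 864 in sh1 and 229 to 501 in sh4, with 501 in replicate 2. Of these 11, 1 rose and 1 fell with both hairpins (medians 1.15 and 0.41), S100B (5.49 and 2.46) and POU3F1 (-1.43 and -3.41), and in the NPCs, where 6 were tested, POU3F1 rose and MBP and S100B fell. SOX10 was 102, 63.9 and 89.4 CPM in sh1 and 19.9, 36.9 and 32.7 CPM in NC. The part of neural crest cells, glia or neurons in the PAX2, PAX8 and EGR2 values was not tested.

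Kidney, otic and thyroid genes, the other domain of PAX2 and PAX8, summed to 214 to 230 CPM in NC, 132 to 163 in sh1 and 233 to 256 in sh4 organoids, and the inner ear gene OC90 and NKX2-1 were at 0 in sh4. PAX8 had the same order of group means, lowest in sh1 and highest in sh4, though its libraries overlapped with NC. That order of the sum did not hold gene by gene. The lower sum in sh1 came mainly from SALL1 and DLX5. SALL1 was 110 ± 12.8 CPM in NC, 9.20 ± 2.46 in sh1 and 9.96 ± 1.10 in sh4. DLX5, also on the forebrain list, was 41.2 ± 5.49, 1.19 ± 0.352 and 3.58 ± 1.01 CPM. Of 14 tested, 4 rose and 3 fell with both hairpins, the podocyte gene NPHS1 from 1.38 ± 0.551 to 6.64 ± 0.657 and 40.8 ± 7.93 CPM and OSR1 (2.57 and 3.97) among those that rose, and SALL1 (-3.57 and -3.46) among those that fell. In the NPCs 7 were tested, SIX2 rose and OSR1 and FBXO2 fell. Optic stalk and retina genes, another domain of PAX2, summed to 138 to 219 CPM in NC, 125 to 136 in sh1 and 76.0 to 131 in sh4. VAX1 (-4.40 and -2.17) and NTN1 fell, and the pigment epithelium genes MITF (1.62 and 2.29) and RPE65 (3.93 and 5.61) rose. In the NPCs 3 of 7 tested fell (TYR, DCT and PMEL) and 0 rose. The pigment gene DCT was 37.2 CPM in NC replicate 2 of the organoids, the NC library highest in EN1 and EN2, against 7.68 and 6.68 in the other NC libraries. The part of these cells in the PAX2, EN1 and EN2 values was not tested.

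B lymphocyte genes, markers of the other domain of PAX5, summed to 36.0 to 40.6 CPM in NC, 69.8 to 86.2 in sh1 and 10.5 to 36.1 in sh4 organoids, with the defining markers MS4A1 and VPREB1 at 0 in each library. Of 4 tested in the organoids 0 rose with both hairpins, and in the NPCs 0 of 2 tested genes were called with both. Of the immediate early genes, to which EGR2 also belongs, 0 rose and 4 fell with both hairpins of 16 tested in the organoids (ATF3, NR4A1, FOSL1 and ARC), and their sum was 530 to 561 CPM in NC, 494 to 513 in sh1 and 395 to 443 in sh4. In the NPCs FOSB rose (1.32 and 2.39), ATF3 fell (-1.14 and -1.09), and the sum was 540 to 689, 458 to 526 and 578 to 644 CPM. FOSB had the same order as EGR2, at 0.820 ± 0.183, 2.04 ± 0.447 and 4.32 ± 0.323 CPM, and the part of an early response in the EGR2 value was not tested.

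Of the neural progenitor genes, some rose in the NPCs and more fell in the organoids. In the NPCs 3 of 5 tested rose and 0 fell with both hairpins, FABP7 (2.30 and 2.27), SOX1 (1.36 and 1.95, reaching 33.4 ± 0.970 and 50.2 ± 3.07 CPM), and PROM1 (1.24 and 1.86). MSI1 (-0.27 and -0.29) and NES (-0.28 and 0.33) were not called, and HES5, under the filter, stood at 0.636 ± 0.269 CPM in NC, 0.105 ± 0.0806 in sh1 and 0.130 ± 0.158 in sh4. The list summed to 2260 to 2450 CPM in NC, 1900 to 2190 in sh1 and 2770 to 3310 in sh4. Most of that sum was NES, at 2150 ± 66.8 CPM in NC, 1770 ± 113 in sh1 and 2690 ± 208 in sh4. In the organoids 5 of 8 fell and 0 rose, with SOX1 from 54.6 ± 3.82 to 8.78 ± 2.37 and 2.76 ± 0.390 CPM, HES5, MSI1 and SOX2 among them, and the 8 genes summed to 2910 to 3330 CPM in NC, 2660 to 2780 in sh1 and 1280 to 1690 in sh4. PROM1 rose there with sh4, from 26.8 ± 1.61 to 61.6 ± 10.4 CPM (edgeR adjusted p = 0.000293), and differed by -0.20 with sh1. Of the neuron genes 2 of 7 fell with both in the organoids (MAP2 and ELAVL3) and 0 of 5 were called with both in the NPCs. Of the pluripotency genes 6 of 6 fell with both in the organoids, where POU5F1 was 231 ± 67.0 CPM in NC, and in the NPCs TDGF1, ZFP42 and NANOG rose and POU5F1 fell from 356 ± 79.8 CPM (-1.83 and -1.39). The part of the cell mix in the GBX2 values was not tested.

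The genes most like each gene called with both hairpins were found by the root mean square difference of their log2 CPM profiles, each centred on its own mean over all libraries. SOX1, a neural progenitor factor, was the nearest to GBX2 in the organoids (0.30 over 9 libraries, among 14749 genes), followed by RORB and HCN4 (0.38 each). In the NPCs SYT6 and LBH (0.23 each over 15 libraries, among 8983 genes) and OLFML3 (0.24) were nearest to GBX2. XKR5 (0.41), KCNC4 (0.43) and CCDC169 (0.44) were nearest to PAX5, whose profile is noisier at its few counts.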

How the data were processed

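The authors deposited 1 table of counts per gene and library for the NPCs (15 libraries) and 1 for the day 30 organoids (9 libraries). Per the submitters' processing notes, these counts come from STAR and featureCounts with the build GRCh38.p13. Versions, settings, strand and the origin of fractional values are not given in the sources used here. Since 82.4% of NPC and 91.0% of organoid values were whole, the authors' values were taken to be expected counts and rounded before testing.

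Organoid identifiers were matched to symbols (42047 of 61544). The 3 groups of a system entered 1 fit in edgeR 4.0.16 (R 4.3.3): filterByExpr with a minimum count of 10, TMM scaling, the quasi-likelihood test, and Benjamini-Hochberg adjustment over all 9860 or 19704 tested genes. Calls needed an adjusted p under 0.05 and an absolute log2 fold change of at least 1, as in the design text of the study. The words "rose" and "fell" mean a call. Standard errors and 95% intervals are from the same fit. CPM are counts divided by the TMM-scaled tested total, on the usual per-million scale. Of RefSeq's protein-coding genes 50.2% are in the NPC table, so NPC totals are not library depth and the scaling assumed that listed genes had no common shift. The scripts were tested on simulated counts.

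The genes, lists and tests were chosen with earlier results of these data known. The rule for named genes takes the 7 genes, OTX2, FGF8, WNT1, LMX1B, HOXA2, HOXB1 and KDM2A. From each list it takes up to 4 genes called in 1 direction by sh1 and sh4 alike. These are taken by the larger of their adjusted p-values, smallest first. SOX10, POU4F1, MS4A1, VPREB1, OC90, DCT, NKX6-1, TH, PAX7 and PAX3 were named as markers after their values were seen. Some genes that the rule takes are not reported here. Likeness used tested genes with a mean log2 CPM of at least 1. Replicates of a group differed by more than sampling noise (chi-square over its degrees of freedom was 2.60 to 32.7 in NPCs, 5.19 to 50.4 in organoids), so none was counted as a repeat. Alternatives were DESeq2 1.42.0 and its size factors in edgeR, library size alone, no filter, a minimum count of 50, unrounded counts, fits of 2 groups, a replicate block, and leaving out each library.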

Additional observations from a re-analysis of the deposited data

Results flagged for a closer look

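The effect of the hairpins differed between NPCs and organoids, in a direct test, for the 4 genes listed in both tables. The difference (NPC minus organoid, log2 scale, edgeR's quasi-likelihood test, Benjamini-Hochberg adjusted over 10034 genes) was 5.45 for GBX2 (adjusted p = 2.65e-12), 2.35 for EGR2 (adjusted p = 1.49e-06), 1.83 for PAX5 (adjusted p = 0.0289) and -2.48 for PAX8 (adjusted p = 0.000921). Of all genes in that fit 78.6% passed the same test. KDM2A was lower in the hairpin groups of the NPCs (log2 fold changes -1.02 and -0.97) and not in those of the organoids (0.14 and 0.01), and the NPC table looks selected by its sh1 contrast. The part of either in these differences was not tested. In 12 groups of 5 NPC libraries tested for a library far from the others, none stood out by Dixon's criterion.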

How the results depend on the processing

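GBX2 kept its calls against NC in both systems, in direction and past the thresholds, wherever it was tested, and in the NPCs the count of called genes of the 7 was 2, 3 and 1 (sh1 against NC, sh4 against NC, sh1 against sh4) without any 1 library. With a minimum count of 50 fewer of the 7 genes were tested (2 in the NPCs, PAX2 alone in the organoids), and 1 was called with sh1 in the NPCs, and 1, 0 and 0 in the organoids. Fits of only 2 groups called 1 with sh1 in the NPCs, where PAX5 was then not tested. They called 0 between the hairpins in the organoids, where GBX2, which passes the filter only through NC, was then not tested. Library size alone called 1 between the hairpins in the organoids. Leaving out 1 library gave 1 to 4 with sh1, 1 to 2 with sh4 and 1 to 3 between the hairpins in the organoids.

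Same-numbered libraries correlated over 0.1 in their deviations in 9 of 15 NPC pairs (-0.10 to 0.393) and in 0 of 9 organoid pairs (-0.156 to 0.035), and 6 of 15 and 1 of 9 libraries correlated best with their own number. Since not every pair did, the numbers were not taken to pair the samples. The block changed no call of the 7 genes in the NPCs. In the organoids, with the replicate number as a block, 2 of the 7 were called with sh1 and 1 between the hairpins, EN1 with sh1 was 2.84 (edgeR adjusted p = 0.053), EGR2 -1.73 (0.0515), PAX8 between the hairpins -1.48 (0.0588), and EN2 with sh4 turned to 0.01. PAX8 between the hairpins also missed the threshold with library size alone (-1.32) and in a fit of 2 groups (-1.55). Without 1 library the sign turned for EN2 with sh4 (range -0.66 to 0.99, with 0.99 without NC replicate 2, 0.07 and 0.18 without sh4 replicates 1 and 2), for EGR2 with sh4 (range -1.03 to 0.11, with 0.11 and 1.8e-03 without sh4 replicates 1 and 3), and for PAX2 between the hairpins (range -2.06 to 2.50, with 2.50 without sh4 replicate 2). The difference between systems ranged from 1.59 to 2.24 for PAX5, -2.76 to -2.14 for PAX8, 5.32 to 5.70 for GBX2 and 2.22 to 2.79 for EGR2. Its cause was not tested in any of these.

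Scaling by library size alone moved the median log2 fold change of all genes by -0.27 with sh4 and by 0.23 between the hairpins in the organoids, and by -0.14 with each hairpin in the NPCs. The share of called genes that were higher then went from 34.3% to 23.7% (NPC, sh1), from 56.4% to 43.3% (organoid, sh4) and from 41.2% to 57.3% (organoid, sh1 against sh4). Depth limits the rest: most of the 7 genes had fewer than 60 counts in each organoid library.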
